A study of Mus musculus with 12 samples.

Results

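The transcripts of 4 inhibitory receptors of T cells, Pdcd1, Ctla4, Lag3 and Tigit, and of Pdcd1lg2, a ligand of the first of these, were followed across T cells isolated from tumors of 12 mice. They were chosen by probe name and make up 5 of the 748 endogenous genes on the panel. Female C57BL/6 mice carried subcutaneous tumors of KPC-Luc, a luciferase-labelled mouse pancreatic ductal adenocarcinoma line. They received 10 µg of peptide daily and 200 µg of antibody at intervals, over 10 days. The 4 groups of 3 mice were Scram+IgG (scrambled peptide and isotype IgG), ANT008+IgG (the VIP receptor antagonist ANT008 and isotype IgG), Scram+aPD-1 (scrambled peptide and anti-PD-1) and ANT008+aPD-1 (both agents). T cells were enriched with CD90.2 beads, and the labels describe the isolates as mostly but not wholly T cells. RNA was counted on the nCounter Metabolic Pathways panel, which counts fluorescent barcodes on single RNA molecules without amplification, with 1 lane per mouse.

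Checkpoint receptors hold back T cells that have met antigen. PD-1, encoded by Pdcd1, binds PD-L1 and PD-L2 and recruits a phosphatase that dampens signals from the T cell receptor and CD28. CTLA-4 competes with CD28 for their shared ligands, LAG-3 binds MHC class II, and TIGIT competes with CD226 for the poliovirus receptor and related nectins. All 4 receptors are induced by activation and stay high on exhausted T cells, and regulatory T cells carry CTLA-4 and TIGIT. PD-L2, encoded by Pdcd1lg2, is best known on dendritic cells and macrophages and can also be made by activated T cells. Anti-PD-1 blocks the PD-1 protein, whereas the counts below are of RNA.

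The target of each probe is the stretch of RNA that was counted, so it fixes what a count of each gene means. The 5 targets are 100 bases long in the vendor's panel definition, which names no genome build, and stretches of them are given 5′ to 3′. For Lag3 the whole target is shown, because it can be read through without a stop codon. For Tigit it is shown as far as its stop codon, because it lies over the inhibitory tail of the receptor. Its capitals, bases 43 to 60, mark 6 codons that match the immunoreceptor tyrosine-based inhibitory motif. For the other genes, whose targets contain stops in all forward reading frames, the opening 30 bases are shown.
Pdcd1: agcaggcttcccggtttcctattgtcacaa
Ctla4: tggactcgaggtcctgcaccaactggcttg
Lag3: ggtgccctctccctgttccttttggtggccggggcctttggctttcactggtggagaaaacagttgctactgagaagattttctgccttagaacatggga
Tigit: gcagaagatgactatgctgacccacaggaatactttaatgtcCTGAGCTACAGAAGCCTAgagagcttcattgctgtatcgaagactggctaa
Pdcd1lg2: attgttagggcacttgagggtgggcgttct
The same codon pattern was searched in all forward reading frames of the 748 endogenous targets and occurred in 70 of them (9.4%), so its presence alone does not single out Tigit. Each gene was read by 1 target, so splice forms were not separated. Probes differ in efficiency, and levels were therefore compared between mice and not between genes.

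The lanes differed widely in depth. The endogenous total ran from 5776 counts in ANT008+aPD-1 mouse 1 to 1486646 in Scram+IgG mouse 3. A gene counted as detected in a lane when it exceeded the average of the 8 negative probes by more than 2 SD, the background used throughout, and counts were scaled by the housekeeping genes Dnajc14, Oaz1 and Ubb. All 12 lanes held T cell transcripts, with none of the 9 T cell markers that the panel holds at 0. ANT008+aPD-1 mouse 1 had 6 of these 9 above background and the other lanes had all 9. This lane failed to detect 79.1% of the endogenous genes and that of ANT008+aPD-1 mouse 3 failed to detect 52.3%. After scaling, the background itself stood at 358 in mouse 1 and 149 in mouse 3 of this group, against 3.42 to 46.3 in the other 10 lanes. Scram+IgG mouse 1 and ANT008+IgG mouse 1 carried a warning mark in the instrument's export, whose reason is not given in the sources used here.

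Pdcd1 was above background in all 12 lanes. The raw counts were 4283, 174 and 1038 in Scram+IgG mice 1 to 3, 2891, 297 and 108 in ANT008+IgG, 2642, 865 and 230 in Scram+aPD-1, and 13, 517 and 75 in ANT008+aPD-1. After scaling these became 696, 166 and 162 in Scram+IgG, 459, 511 and 216 in ANT008+IgG, 470, 262 and 943 in Scram+aPD-1, and 469, 408 and 902 in ANT008+aPD-1. All groups overlapped, and Scram+IgG held both the lowest values and, in mouse 1, one of the highest. The 13 counts of ANT008+aPD-1 mouse 1 have a 95% Poisson interval of 6.92 to 22.2, which covers counting error only and includes the lane's background of 9.94.

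Ctla4 was also above background in all 12 lanes. Its raw counts were 2409, 55 and 413 in Scram+IgG, 1910, 69 and 152 in ANT008+IgG, 1822, 808 and 46 in Scram+aPD-1, and 10, 999 and 51 in ANT008+aPD-1. The scaled counts were 392, 52.4 and 64.6 in Scram+IgG, 304, 119 and 303 in ANT008+IgG, 324, 245 and 189 in Scram+aPD-1, and 360, 788 and 614 in ANT008+aPD-1. Mice 2 and 3 given both agents were higher than every mouse given either agent alone, and mouse 1 lay above those mice but below Scram+IgG mouse 1. The value of ANT008+aPD-1 mouse 1 rested on 10 counts (95% Poisson interval 4.79 to 18.4). That is 1.01 times the lane's background and below its highest negative probe, at 11 counts, and the scaled background of 358 is itself above every value of the single agents. ANT008+aPD-1 mouse 2 was measured far above background, and there Ctla4 took 0.372% of the endogenous counts.

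Lag3 was above background in 11 lanes. The raw counts were 4916, 193 and 1226 in Scram+IgG, 2761, 260 and 126 in ANT008+IgG, 3330, 887 and 183 in Scram+aPD-1, and 9, 937 and 102 in ANT008+aPD-1, where the 9 counts of mouse 1 were below background. The scaled counts were 799, 184 and 192 in Scram+IgG, 439, 447 and 251 in ANT008+IgG, 593, 269 and 750.0 in Scram+aPD-1, and 324, 739 and 1227 in ANT008+aPD-1. The groups overlapped, with the highest value in ANT008+aPD-1 mouse 3 and the next in Scram+IgG mouse 1.

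Tigit was the least often detected of the receptors, above background in 9 lanes. Its raw counts were 1521, 28 and 245 in Scram+IgG, 1072, 22 and 46 in ANT008+IgG, 1004, 320 and 10 in Scram+aPD-1, and 8, 240 and 12 in ANT008+aPD-1. The 10 counts of Scram+aPD-1 mouse 3 and the 8 and 12 counts of ANT008+aPD-1 mice 1 and 3 were below background, so ANT008+aPD-1 mouse 2 was the only lane of its group in which Tigit was detected. The scaled counts were 247, 26.7 and 38.3 in Scram+IgG, 170, 37.9 and 91.8 in ANT008+IgG, 179, 97.0 and 41.0 in Scram+aPD-1, and 288, 189 and 144 in ANT008+aPD-1. The group mean of 207 ± 73.6 (SD, n = 3) in ANT008+aPD-1 therefore includes 288 and 144 from lanes whose scaled backgrounds were 358 and 149.

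Pdcd1lg2, the ligand, was above background in all 12 lanes, though in ANT008+aPD-1 mouse 1 its 10 counts were 1.01 times background and below the highest negative probe. The raw counts were 1122, 75 and 761 in Scram+IgG, 739, 113 and 34 in ANT008+IgG, 1591, 197 and 36 in Scram+aPD-1, and 10, 194 and 32 in ANT008+aPD-1. Scaled, these were 182, 71.4 and 119 in Scram+IgG, 117, 194 and 67.9 in ANT008+IgG, 283, 59.7 and 148 in Scram+aPD-1, and 360, 153 and 385 in ANT008+aPD-1. The groups overlapped, and the high values of ANT008+aPD-1 came from mice 1 and 3, the shallow lanes, while mouse 2 lay within the range of the other groups.

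**Figure D1:**
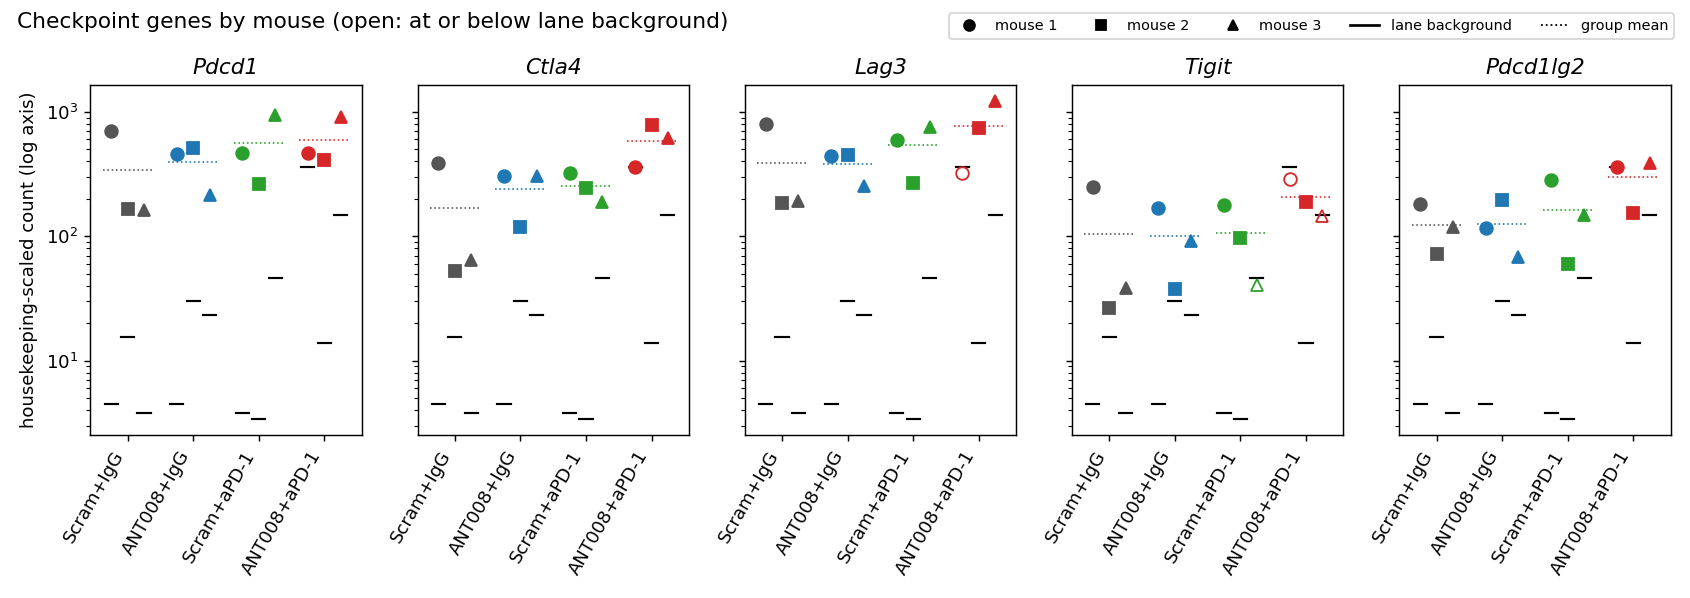
Housekeeping-scaled counts (log axis) of the 5 checkpoint genes in each of the 12 mice, by group, with mouse numbers as symbols, the scaled background of each lane as a short black bar and the group mean as a dotted line. Open symbols are at or below background: Lag3 in 1 lane and Tigit in 3. In ANT008+aPD-1 mouse 1 the symbols lie between 288 and 469, around the background of 358, and the Ctla4 value there, 360, is at background. Ctla4 in ANT008+aPD-1 mice 2 and 3 (788 and 614) lies above the values of both single agents (119 to 324).

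Whether either agent alone altered the checkpoint transcripts was asked first, against Scram+IgG. With ANT008 alone no checkpoint gene passed the test (edgeR quasi-likelihood test, Benjamini-Hochberg false discovery rate (FDR) below 0.1 over 640 genes, 4 groups in 1 fit). The log2 fold changes ran from -0.05 (SE 0.64) for Lag3 to 0.51 (SE 0.68) for Ctla4, with an FDR of 0.999 for all 5. Their median was 0.02, beside 0.11 over all genes tested. Across the panel 0% of genes passed the FDR and 0.469% had an unadjusted p below 0.05, none of which was a checkpoint gene. Without Scram+IgG mouse 1 the log2 fold changes were 2.05 for Ctla4, 1.63 for Tigit, 1.27 for Pdcd1 and 1.02 for Lag3, and Pdcd1lg2 stood at 0.40. By edgeR none passed the FDR, at 0.449 for Ctla4, while Ctla4 and Tigit joined the 8.59% of genes with an unadjusted p below 0.05.

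With anti-PD-1 alone the 5 log2 fold changes were 0.70 (SE 0.65) for Pdcd1, 0.58 (SE 0.68) for Ctla4, 0.45 (SE 0.64) for Lag3, 0.05 (SE 0.79) for Tigit and 0.40 (SE 0.59) for Pdcd1lg2. None passed, with an FDR of 0.988 for each by edgeR, and each value but that of Pdcd1 lay within 1 SE of 0. Across the panel 0% of genes passed the FDR and 1.09% had an unadjusted p below 0.05. The median of the 5 was 0.45, beside 0.15 over all genes tested. Without Scram+IgG mouse 1 the values were 2.11 for Ctla4, 1.76 for Pdcd1, 1.73 for Tigit, 1.51 for Lag3 and 0.78 for Pdcd1lg2. None passed the edgeR FDR, the lowest being 0.259 for Ctla4, but the 4 receptors were among 12.7% of genes with an unadjusted p below 0.05.

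With both agents all 5 estimates were above 0, although Pdcd1, Lag3 and Pdcd1lg2 fell below 0 when lanes were scaled by the CD3 chains and all 5 did when they were scaled by the positive control probes. The log2 fold change against Scram+IgG was 1.83 (SE 0.71) for Ctla4, a 3.54-fold difference of fitted means, with an unadjusted p of 0.0248 and an FDR of 0.337 in edgeR's test. It was 1.19 (SE 0.63) for Pdcd1lg2, 0.99 (SE 0.65) for Lag3, 0.91 (SE 0.86) for Tigit and 0.80 (SE 0.67) for Pdcd1, with FDRs from 0.458 to 0.659. None passed the threshold, which 0% of the panel did, and Ctla4 alone was among the 12.8% of genes with an unadjusted p below 0.05. The median of the 5 was 0.99, beside 0.12 over all genes tested. Of the tested genes, 92.0% had a lower log2 fold change than Ctla4 and 73.6% a lower one than Pdcd1. Scaling by the CD3 chains moved the median of all genes to -1.91 and scaling by the positive controls to -4.37. Relative to these medians Ctla4 stood at 2.78 and 1.87, and Pdcd1 at 1.43 and 0.13, compared with 1.70 and 0.67 under the housekeeping scaling.

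The comparison of the combination with Scram+IgG also depended on Scram+IgG mouse 1, whose checkpoint transcripts stood above those of the other Scram+IgG mice and whose lane carried the warning mark. Without it, 4 of the 5 genes passed: Ctla4 at a log2 fold change of 3.37 (FDR 0.0210), Tigit at 2.57 (FDR 0.0539), Lag3 at 2.06 (FDR 0.0593) and Pdcd1 at 1.86 (FDR 0.0908) by edgeR's test. Pdcd1lg2 did not, at 1.56 (FDR 0.213). Background was not subtracted in these fits. Tigit was above background only in mouse 2 of ANT008+aPD-1, its 8 and 12 counts in mice 1 and 3 being below it. In ANT008+aPD-1 mouse 1, Lag3 was also below background and Ctla4 was 1.01 times background. Without both marked lanes the calls were Ctla4 (FDR 0.0180), Tigit (FDR 0.0341) and Lag3 (FDR 0.0677) by the same edgeR test, and Pdcd1 had an FDR of 0.104. Of all tested genes, 13.1% passed without Scram+IgG mouse 1, among them 7 of the 9 T cell, 3 of the 5 myeloid and 2 of the 3 NK cell markers of the panel. The NK cell markers that passed were Klrd1 and Klrk1, and Ncr1 did not pass. Without both marked lanes 13% passed, among them 8 of the 9 T cell markers. Scram+IgG mouse 1 also had the most T cell transcript of its group. The geometric mean of the raw CD3 counts was 4927 in it, and the summed scaled count of the 9 T cell markers was 4771, against 823 and 808 in the other Scram+IgG mice. Its myeloid markers summed to 1483, against 353 and 601, and its NK cell markers to 1655, against 161 and 245. The part of cell content and of the marked lane in the comparison was not tested.

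Set against each single agent, no checkpoint gene passed the test. For Ctla4 the log2 fold change was 1.32 (SE 0.71) against ANT008+IgG and 1.25 (SE 0.70) against Scram+aPD-1, with edgeR FDRs of 0.578 and 0.751. Every mouse of the combination was higher in both, with a two-sided exact permutation p of 0.1, the smallest that 3 against 3 mice allow. That order rests in mouse 1 on a value at background, in a lane where any gene at background would lie above the single agents, so it does not bear on Ctla4 in that mouse. Without mouse 1 the log2 fold changes were 1.54 (SE 0.78) and 1.47 (SE 0.78), with edgeR FDRs of 0.837 and 0.997. Of all tested genes, 6.25% were higher in every mouse than in ANT008+IgG and 4.53% than in Scram+aPD-1. For comparison, 7.81% of genes were higher in every mouse than in Scram+IgG, and no checkpoint gene was among them. The other 4 genes overlapped between the groups, at 0.58 to 1.17 against ANT008+IgG, where the median of all genes was -0.04. Against Scram+aPD-1 they ran from 0.10 for Pdcd1 to 0.85 for Tigit, where the median was again -0.04. No checkpoint gene had an unadjusted p below 0.05 against either single agent, where 0% of genes passed the FDR and 7.81% and 6.25% had such a p. All these comparisons share the ANT008+aPD-1 lanes.

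The interaction term asks whether the combination departed from the sum of the separate log2 changes. It was 0.90 (SE 1.17) for Tigit, 0.77 (SE 0.86) for Pdcd1lg2, 0.74 (SE 0.98) for Ctla4, 0.59 (SE 0.91) for Lag3 and -0.11 (SE 0.93) for Pdcd1. Every estimate was smaller than its SE, and the edgeR FDR was 0.993 for all 5. Across the panel 0% of genes passed the FDR and 1.41% had an unadjusted p below 0.05, with no checkpoint gene among them.

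**Figure D2:**
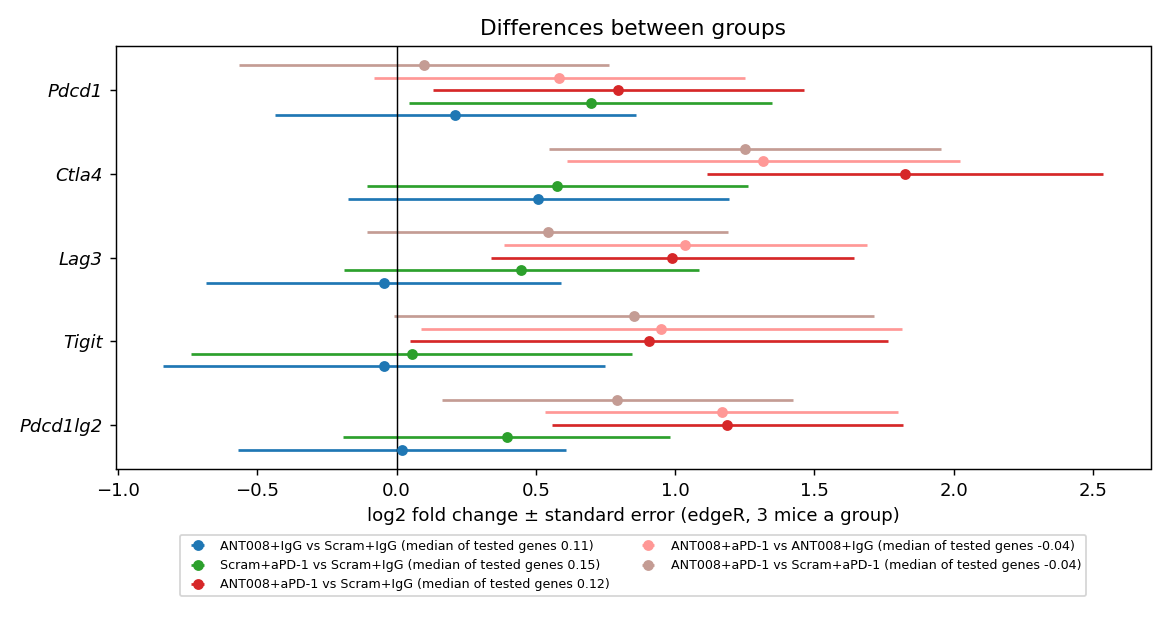
Log2 fold changes of the 5 genes between groups (points) with their standard errors (lines) from the edgeR fit, 3 mice a group, with the median of all tested genes of each comparison in the legend. Both single agents (blue, green) lie between -0.05 and 0.70, and the largest value is that of Ctla4 for ANT008+aPD-1 against Scram+IgG, 1.83.

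Because the isolates differed in T cell transcript, the checkpoint genes were also read per CD3, as counts per 100 counts of the geometric mean of Cd3d, Cd3e and Cd3g, the signalling chains of the T cell receptor. This ratio is taken within a lane and needs no scaling between lanes. In bulk RNA, fewer T cells and less RNA per T cell cannot be told apart. The scaled CD3 level was 801, 95.4 and 92.2 in Scram+IgG, 517, 149 and 216 in ANT008+IgG, 410, 237 and 173 in Scram+aPD-1, and 545, 545 and 599 in ANT008+aPD-1. It was highest in Scram+IgG mouse 1. In ANT008+aPD-1 mouse 1 the 545 rests on a geometric mean of 15.1 raw counts over a background of 9.94, with Cd3e at 8 counts and below background, so every ratio per CD3 in that mouse has a denominator near background.

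Per 100 CD3 counts, Ctla4 stood at 48.9, 54.9 and 70.1 in Scram+IgG, 58.7, 79.9 and 140 in ANT008+IgG, 79.1, 104 and 109 in Scram+aPD-1, and 66.1, 145 and 102 in ANT008+aPD-1. Every Scram+aPD-1 mouse was above every Scram+IgG mouse, a log2 difference of 0.75 with an exact permutation p of 0.1, the smallest possible. That order holds for the geometric mean of the 3 chains. Against Cd3d alone, Scram+aPD-1 mouse 3, with 46 Ctla4 counts to 134 of Cd3d, lay below Scram+IgG mouse 1, with 2409 to 5185. By the geometric mean, every Scram+aPD-1 mouse was higher for 0.781% of tested genes. These were Ctla4, Ccl4, Glrx, Ifng and Slc2a3, listed after their values were seen. Of these, Ifng and Slc2a3 were above background in 8 and 7 of the 12 lanes. In Scram+IgG mouse 2 they had 9 and 14 counts, below the background of 16.3. In Scram+aPD-1 mouse 3 they had 12 and 7 counts, beside a background of 11.3. With lanes scaled by the CD3 chains, the median log2 fold change of all tested genes was -0.64 in this comparison. Most genes thus stood lower relative to CD3, which bears on how small the share of 0.781% is. Ccl4 and Ifng encode a chemokine and a cytokine of activated T cells, Glrx a redox enzyme and Slc2a3 a glucose transporter. The combination showed a similar log2 difference for Ctla4, 0.79, but ANT008+aPD-1 mouse 1 lay within the Scram+IgG range (exact permutation p = 0.2). With ANT008 alone the difference was 0.60, again with overlap (exact permutation p = 0.2).

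The other receptors did not separate from Scram+IgG per CD3. Pdcd1 stood at 86.9, 174 and 176 per 100 CD3 counts in Scram+IgG and at 86.0, 74.9 and 151 in ANT008+aPD-1, a log2 difference of -0.49 (exact permutation p = 0.2). Its highest ratios were 545 in Scram+aPD-1 mouse 3 and 344 in ANT008+IgG mouse 2, while the other mice of those groups ranged from 88.9 to 115. Cd3d itself was highest in these 2 mice, at 318 and 328 per 100 CD3 counts, against 90.7 to 230 in the others. Cd3e had 17 and 43 counts there, over backgrounds of 11.3 and 17.7. The high ratios thus come with a low Cd3e part of the reference. Lag3 had its highest ratios in the same mice, 434 and 301, and a log2 difference of -0.42 in the combination (exact permutation p = 0.6), for which the mouse 1 value of 59.5 was below background. The sign of both receptors in the combination was thus negative per CD3 and positive after housekeeping scaling, and neither difference passed a test.

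Per geometric mean of the 3 CD3 chains, Tigit had the narrowest range of the 5 genes. Against Cd3d alone Tigit was less steady. In ANT008+IgG it had 22 counts (1.24 times background) to 283 of Cd3d in mouse 2 and 1072 to 2950 in mouse 1. It stood at 28.0 to 41.6 per 100 CD3 counts in Scram+IgG, 25.5 to 42.5 in ANT008+IgG, 23.7 to 43.6 in Scram+aPD-1 and 24.1 to 52.9 in ANT008+aPD-1, the lowest of Scram+aPD-1 and both ends of the last range coming from lanes where it was below background. The log2 differences from Scram+IgG lay between 0.00 and 0.10 (exact permutation p from 0.9 to 1). Pdcd1lg2 had a wide range within each group, 22.8 to 129 in Scram+IgG, 22.7 to 131 in ANT008+IgG, 25.2 to 85.3 in Scram+aPD-1 and 28.1 to 66.1 in ANT008+aPD-1. Its log2 differences ran from -0.41 to -0.19 (exact permutation p from 0.8 to 0.9).

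**Figure D3:**
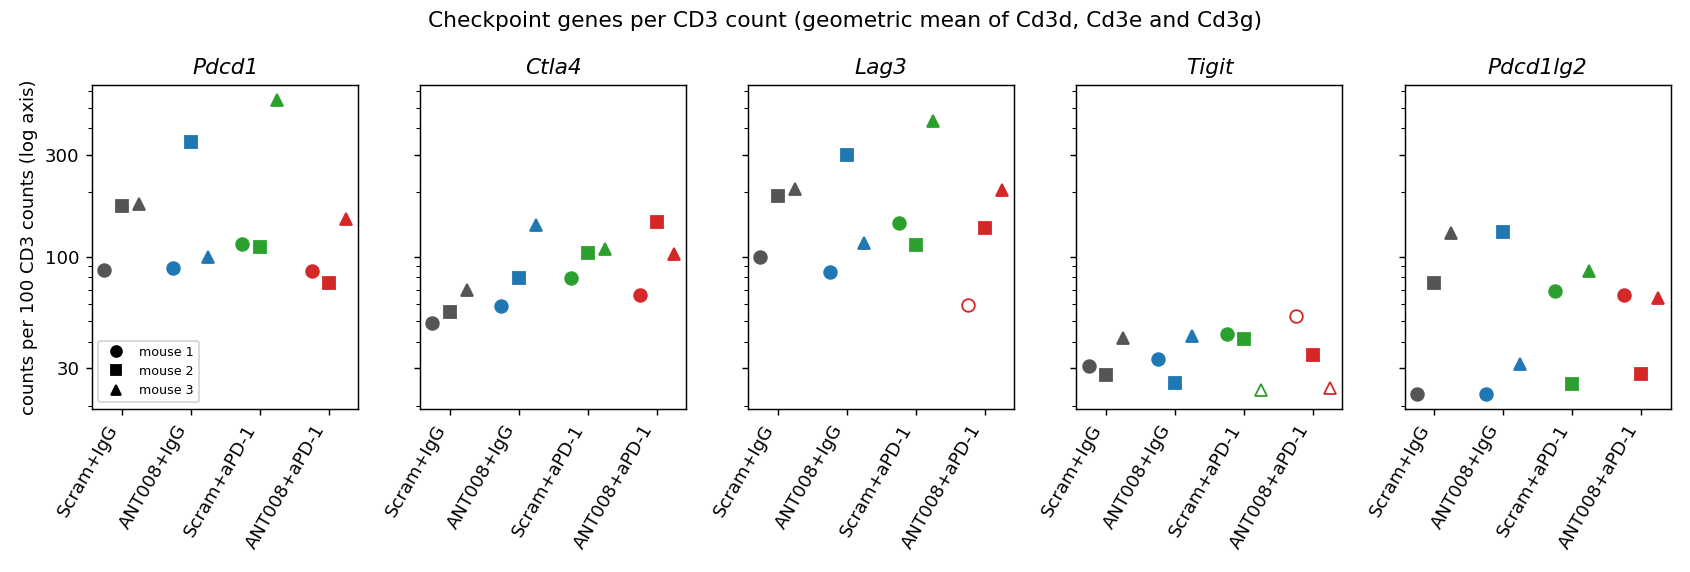
Counts of each checkpoint gene per 100 CD3 counts (log axis) in the 12 mice, by group, with open symbols where the gene was at or below background. Ctla4 lies between 48.9 and 70.1 in Scram+IgG and between 79.1 and 109 in Scram+aPD-1, and Tigit stays between 23.7 and 52.9 throughout. Pdcd1 and Lag3 peak in the same 2 mice, in which Cd3d (not shown) was also highest per 100 CD3 counts.

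Some pairs of checkpoint genes ran more alike than others. Likeness was measured as the SD over lanes of the log2 ratio of 2 genes' counts, which is low when the ratio stays the same from mouse to mouse and does not depend on lane scaling. It is a description over lanes that differ in depth and T cell content. Over the 9 lanes in which all 5 were above background, Pdcd1 and Lag3 were the closest pair, with an SD of 0.297, followed by Ctla4 and Tigit, at 0.502, and Ctla4 ranked 23 of 511 genes in likeness to Tigit. Ctla4 and Pdcd1lg2 were the farthest apart, at 1.29. Pdcd1lg2 stood at 0.565 with Lag3 and 0.570 with Pdcd1, little farther than Ctla4 from Tigit, and at 1.14 with Tigit. As a share of the summed counts of the 5 genes, Ctla4 ran from 9.07% in ANT008+IgG mouse 2 to 34.6% in ANT008+aPD-1 mouse 2, the mouse in which the share of Pdcd1 was lowest, at 17.9%.

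The genes of the panel most like each checkpoint gene are given next. For Pdcd1, over 12 lanes and 141 genes above background in all of them, these were Nkg7 (SD 0.289), a cytotoxic granule protein, Ptprc (0.320), which encodes CD45, and Cd3d (0.366). The median gene stood at 0.926. For Lag3, over 11 lanes and 348 genes, the same 3 genes led, with Nkg7 at 0.166, Cd3d at 0.228 and Ptprc at 0.289, and Pdcd1 came next at 0.322. For Ctla4, over 12 lanes and 141 genes, the chemokine genes Ccl4 (0.503) and Ccl5 (0.519) and the kinase gene Lck (0.577) were nearest, against a median of 1.37. For Tigit, over 9 lanes and 511 genes, they were the co-stimulatory receptors Cd27 (0.195) and Icos (0.275), and Lck (0.297), against a median of 1.37. For Pdcd1lg2, over 12 lanes and 141 genes, they were Traf1 (0.417), an adaptor of TNF receptors, the granzyme gene Gzma (0.545) and the receptor gene Cd244a (0.550), against a median of 0.972. The lanes and candidate genes differ between the 5, so these SDs are not set against each other. The sets over 12 lanes hold only genes detected in ANT008+aPD-1 mouse 1, where 156 genes were, so Lag3 and Tigit could not enter. In that lane Ctla4 and Pdcd1lg2 were at 1.01 times background, so 1 of their 12 ratios rests on a count at background.

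**Figure D4:**
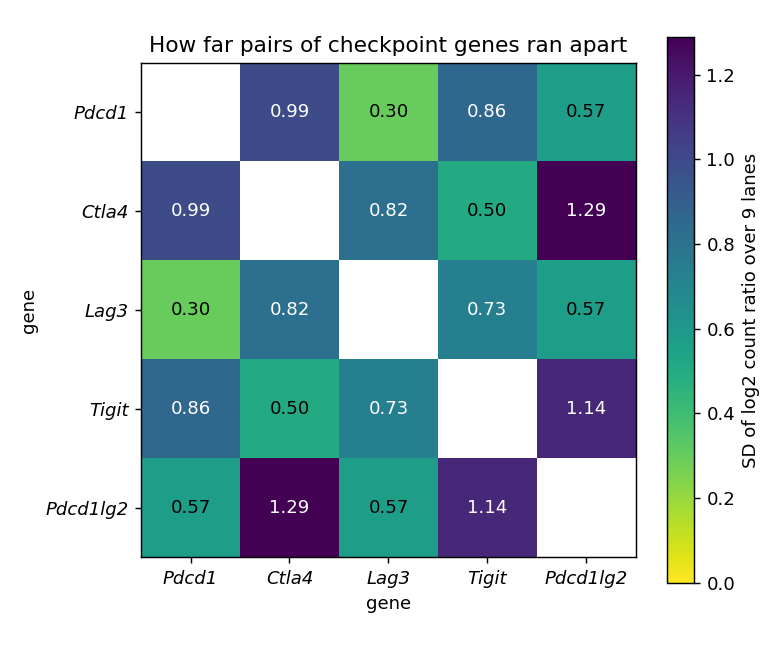
SD over 9 lanes of the log2 count ratio of each pair of checkpoint genes, where a low value (yellow to green) means a ratio that stayed alike from mouse to mouse. Pdcd1 with Lag3 (0.30) and Ctla4 with Tigit (0.50) are the lowest, and Ctla4 with Pdcd1lg2 (1.29) is the highest.

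The wider pathway was read from 4 lists of related genes in the comparison of ANT008+aPD-1 with Scram+IgG, in which no listed gene passed the FDR. Of 27 further checkpoint receptors and ligands 3 are on the panel, Cd274, which encodes PD-L1, Cd244a and Cd276. Of these, 2 were above 0 and none had an unadjusted p below 0.05, from -0.16 (SE 0.67) for Cd276 to 0.91 (SE 0.50) for Cd244a, with a median of 0.67. Cd276 had 3, 69 and 1 raw counts in the ANT008+aPD-1 mice and was above background in 1 of these lanes. Of 18 co-stimulatory genes 6 are on the panel, all above 0 with a median of 1.32, from 0.53 (SE 0.59) for Cd6 to 2.13 (SE 0.62, edgeR FDR 0.309) for Cd28, the activating counterpart of Ctla4. Cd28 was the only one of them with an unadjusted p below 0.05, against 12.8% of all genes. Of 19 genes of proximal signalling 9 are on the panel, 8 of them above 0 with a median of 0.57 and none at an unadjusted p below 0.05. They ran from -0.67 (SE 0.33) for Plcg1, a phospholipase, to 0.98 (SE 0.55) for Lat, an adaptor of the T cell receptor. Plcg1 had 5, 192 and 8 raw counts in the ANT008+aPD-1 mice and was above background in 1 of these lanes.

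Of 20 exhaustion and regulatory genes 10 are on the panel, all above 0 with a median of 1.47, and 4 had an unadjusted p below 0.05, beside 12.8% of all genes. They ran from 0.44 (SE 0.58) for Foxp3, the regulatory T cell factor, to 3.82 (SE 0.79, edgeR FDR 0.242) for Il10, an inhibitory cytokine. Il10 had 7, 41 and 10 raw counts in the ANT008+aPD-1 mice and was above background in 1 of these lanes. Its fold change thus rests on counts near background. Foxp3 had 2, 41 and 1 raw counts in the same mice and was also above background in only 1 of the lanes. The median over all genes tested was 0.12 in this comparison. These signs are relative to the scaling: scaling by the CD3 chains moved all genes together, to a median of -1.91, and left 0 of 3, 5 of 6, 0 of 9 and 6 of 10 genes of the lists above 0, with medians of -1.09, 0.23, -0.79 and 0.18. Scaling by the positive control probes left none above 0, with list medians from -4.096 to -3.48 beside -4.37 over all genes. Without Scram+IgG mouse 1, when 13.1% of all genes passed, the genes that passed were 1 of the 3 further checkpoint genes (Cd244a), all 6 co-stimulatory genes, 3 of the 9 signalling genes and 8 of the 10 exhaustion and regulatory genes.

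Markers of T cells and of other cells also differed between lanes. The summed scaled count of the T cell markers was 808 to 4771 in Scram+IgG, 1561 to 3156 in ANT008+IgG, 1643 to 3062 in Scram+aPD-1 and 3542 to 5138 in ANT008+aPD-1. The 5 myeloid markers on the panel, Cd14, Itgam, Cd68, Cd163 and Csf3r, summed to 353 to 1483, 519 to 1368, 791 to 1967 and 1588 to 2419 in the same order of groups. Myeloid cells are a known source of PD-L2. None of the 5 was at 0 in any lane, and all 5 were above background in 7 lanes, 4 of them in 4 lanes and 2 of them in ANT008+aPD-1 mouse 1. The 3 listed markers of NK cells, which also express Tigit and Lag3, were Ncr1, Klrk1 and Klrd1. They summed to 161 to 1655, 246 to 1235, 328 to 715 and 902 to 1334. In ANT008+aPD-1 mice 1 and 3, 2 of the 3 were above background, and in the other lanes all 3 were. The 1334 came from ANT008+aPD-1 mouse 1, where the scaled background of a single gene was 358. The T cell and myeloid sums of that lane, 4325 and 2054, add up 9 and 5 such genes without background subtraction. In ANT008+aPD-1 mouse 3 they were 5138 and 2419, with a single-gene background of 149. The panel held 1 dendritic cell marker, 2 B cell markers and 1 fibroblast marker, and none of the listed markers of tumor epithelium or endothelium. Their summed scaled counts ran from 3.74 to 144, 4.23 to 180 and 3.16 to 108. All upper ends came from ANT008+aPD-1 mouse 1, and in no lane of that group was any of these markers above background. The part of myeloid and NK cell transcripts in the checkpoint values was not tested.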

How the data were processed

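RNA of T cells from the tumors of 12 mice was measured, 3 mice in each of 4 groups, with groups and mouse numbers taken from the sample titles. The authors deposited raw counts per probe as exported from the nCounter software, with no background subtraction, scaling or pooling, and the vendor's panel definition, used here for probe targets. The methods name no normalization of these counts and no test for single genes. Endogenous totals ran from 5776 to 1486646 counts per lane, which sets the precision of each value.

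Background was the average of the 8 negative probes plus 2 SD. Lane size was taken from the 3 housekeeping genes (of 20) detected in every lane, as their geometric mean. Their lowest counts over the lanes were 12 for Dnajc14, 35 for Oaz1 and 63 for Ubb. The background of the shallowest lane, ANT008+aPD-1 mouse 1, was 9.94, so small counts enter its lane size. Of 748 endogenous genes, the 640 detected in 3 or more lanes entered edgeR 4.0.16 in R 4.3.3 (quasi-likelihood, 4 groups in 1 fit, no covariates, Benjamini-Hochberg FDR below 0.1). Single values were compared by the two-sided exact permutation test. The lanes of a group differed beyond counting noise in every pair (chi-square per degree of freedom 3.1 to 355). With 1 lane per mouse, p-values measure the spread between lanes, in which differences between mice, isolations and lanes are not separated. The mouse numbers were not used to pair mice in the main fit. The deviations of same-numbered lanes from their group means correlated between -0.640 and 0.781. Among mice numbered 1, pairs of lanes outside ANT008+aPD-1 correlated at 0.679, 0.757 and 0.781. Both lanes with the warning mark are among these. Pairs with ANT008+aPD-1 mouse 1 lay between -0.253 and -0.105. Pairs numbered 2 or 3 ran from -0.640 to 0.507. What the lanes numbered 1 share was not tested.

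The checkpoint genes and the gene lists were chosen with earlier results of these data known. Besides the 5 genes, the text names the 3 genes most alike to each, the ends of each list and the reference genes. Alternatives were TMM, total-count, all-housekeeping, CD3 and positive-control scaling, background subtraction, other gene filters, DESeq2 1.42.0, limma 3.58.1 on log2(scaled count + 1) and voom with sample weights, fewer groups, a replicate block, lanes of at least 50000 counts, and each mouse left out. Leaving out the marked lanes was chosen after seeing the data. Gene names were kept as the panel gives them.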

Additional observations from a re-analysis of the deposited data

How the results depend on the processing

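No checkpoint gene passed in any of the 6 comparisons under the other scalings and gene filters, background subtraction, DESeq2, limma on log2 values, fits of only the groups compared, lanes of at least 50000 counts, or the replicate block, where the number called was 0 in all 6. Scaling by the positive controls was run for the combination against Scram+IgG, and fits of only the groups compared for the 5 comparisons between groups. Voom with sample weights called 1 gene with ANT008 alone, 4 with anti-PD-1 alone and 4 with both agents against Scram+IgG, the last with log2 fold changes of 3.13 for Ctla4, 2.20 for Lag3, 2.18 for Tigit and 2.07 for Pdcd1. Across the panel it called 44, 143 and 156 genes in these comparisons, where edgeR called 0. DESeq2 called 30 genes in the combination against Scram+IgG, and scaling by the CD3 chains called 192. Leaving out 1 mouse gave 0 to 4 checkpoint genes in the combination against Scram+IgG, the 4 arising without Scram+IgG mouse 1, and leaving out both marked lanes gave 3. With lanes of at least 50000 counts the combination rests on mouse 2 alone, which is then assumed to vary like the other groups. The replicate block turned Lag3 (0.14) and Tigit (0.33) with ANT008 alone, left the other signs as they were and changed no count of checkpoint calls. Of the 12 lanes, 3 correlated best with their own number.

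Signs changed as follows, and the causes were not tested. Scaling by the positive controls turned all 5 in the combination against Scram+IgG, to -4.25 for Pdcd1, -2.51 for Ctla4, -3.66 for Lag3, -3.85 for Tigit and -4.06 for Pdcd1lg2, in a panel whose median was -4.37, so that relative to it all 5 stood above 0, from 0.13 to 1.87. Scaling by the CD3 chains turned Pdcd1 (-0.49), Lag3 (-0.31) and Pdcd1lg2 (-0.55) there, Pdcd1 (-0.77), Lag3 (-0.31) and Pdcd1lg2 (-0.24) against ANT008+IgG, and Pdcd1 (-1.30), Lag3 (-0.77), Tigit (-0.0096) and Pdcd1lg2 (-0.20) against Scram+aPD-1. It turned Pdcd1lg2 with anti-PD-1 alone (-0.35), Lag3 (0.0032), Tigit (0.0058) and Pdcd1lg2 (-0.30) with ANT008 alone, and Ctla4 (-0.55), Lag3 (-0.77) and Tigit (-0.015) in the interaction. With ANT008 alone, Pdcd1lg2 was also negative under TMM (-0.15), total-count (-0.16) and all-housekeeping scaling (-0.030), background subtraction (-0.040), DESeq2 (-0.12), limma on log2 values (-1.9e-05) and voom (-0.093). Lag3 and Tigit there were positive under limma on log2 values (0.27 and 0.40) and voom (0.68 and 1.54). With anti-PD-1 alone, Tigit was negative under TMM (-0.034), total-count scaling (-0.087), background subtraction (-0.021) and DESeq2 (-0.027). Against Scram+aPD-1, Pdcd1 was negative under all-housekeeping scaling (-0.026), background subtraction (-0.089) and lanes of at least 50000 counts (-0.44), as was Pdcd1lg2 under the last (-0.10). In the interaction, Pdcd1 was positive under TMM (0.050), total-count scaling (0.31) and DESeq2 (0.011), voom turned Ctla4 (-0.96) and Tigit (-1.09), and lanes of at least 50000 counts turned Pdcd1lg2 (-0.12). Per CD3, Tigit turned with Cd3e alone as reference in ANT008+IgG (0.11) and with background subtracted in Scram+aPD-1 (-0.13) and ANT008+aPD-1 (-0.27).

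With each mouse left out in turn, the estimates with ANT008 alone ran from 0.087 to 2.05 for Ctla4, -0.13 to 1.27 for Pdcd1, -0.38 to 1.02 for Lag3, -0.70 to 1.63 for Tigit and -0.41 to 0.40 for Pdcd1lg2. With anti-PD-1 alone they ran from 0.15 to 2.11 for Ctla4, 0.099 to 1.76 for Pdcd1, 0.11 to 1.51 for Lag3, -0.54 to 1.73 for Tigit and -0.32 to 0.81 for Pdcd1lg2, and Pdcd1 against Scram+aPD-1 from -0.35 to 0.70. In the interaction they ran from -1.17 to 0.49 for Pdcd1, -0.79 to 1.16 for Ctla4, -0.47 to 0.93 for Lag3 and -0.79 to 1.55 for Tigit. Per CD3, ANT008+IgG ran from -0.56 to 0.42 for Pdcd1, -0.67 to 0.24 for Lag3, -0.19 to 0.18 for Tigit and -1.18 to 0.14 for Pdcd1lg2. Scram+aPD-1 ran from -0.30 to 0.85 for Pdcd1, -0.31 to 0.66 for Lag3, -0.081 to 0.36 for Tigit and -0.89 to 0.36 for Pdcd1lg2. ANT008+aPD-1 ran from -0.82 to 0.071 for Lag3, -0.19 to 0.38 for Tigit and -0.998 to 0.254 for Pdcd1lg2.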
